A study of Mus musculus with 6 samples.

Results

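Rab GTPases were followed on arrays of sorted bone marrow cells from young and old C57BL/6 mice. The family was taken as every gene whose symbol is Rab followed by a digit and that is named by a RefSeq transcript among the array's probes. From 69 such symbols, 12 that name Rab interacting proteins or antisense transcripts were left out (for example Rab3gap1, Rab11fip1, Rab3il1, Rab5if and Rab10os). This left 57 Rab genes of the 37163 gene names on the array, each read from its probe with the highest mean. The young group was 3 samples from C57BL/6 mice aged 3 months, and the old group 3 samples from C57BL/6 mice aged 24 months. The labels give no other treatment or genotype for either group. They describe total RNA of mesenchymal stem cells that had been labelled and sorted from bone marrow, without naming the sort markers. Whether each sample came from a separate animal is not stated, and the p-values below therefore cover only the spread among these 3 and 3 samples, which may be technical.

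Rab proteins are small GTPases of the Ras superfamily that mark the membranes of the secretory and endocytic pathways. Each cycles between a GTP-bound form, which recruits effectors such as tethers and motor adaptors, and a GDP-bound form, which GDP dissociation inhibitors keep soluble in the cytosol. Guanine nucleotide exchange factors (GEFs) switch a Rab on and GTPase-activating proteins (GAPs) switch it off. In blood and marrow cells the family serves phagosome maturation, granule secretion and the making of lysosome-related organelles, and in other cells it serves cilia and the delivery of receptors and matrix.

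The old arrays were dimmer, with a 75th percentile of the processed signal of 229.4 to 318.8 against 314.8 to 393.5 on the young arrays. All values below are therefore log2 signals minus the 75th percentile of the same array. The number of arrays, 3 in each group, limits the precision. All 6 arrays shared a slide on which each row held a single age, and the effect of the row cannot be told apart from that of age. The labelled cell type was checked against 18 stromal markers: 5 of them (Pdgfra, Pdgfrb, Prrx1, Twist1, Foxc1) never rose well above background. Of the 11 tested, 4 fell and 1 rose in old samples at a limma adjusted p under 0.05 (45.5%, against 8.01% of all genes). Those that fell were Sparc (log2 fold change -4.3), Cxcl12 (-2.4), Thy1 (-1.56) and Col1a1, which was not well above background on any old array. The one that rose was Lepr (1.02). Log2 fold changes lay below 0 in 9 of the 11. Leukocyte markers were present throughout and lower in old samples, with 12 of 12 measured on all 6 arrays. All 12 had log2 fold changes below 0 (median -1.26), against 39.8% of all genes. At the same adjusted p, 6 of the 12 were called lower, against 4.04% of all genes. The summed signal of these 12 genes, in multiples of the 75th percentile, was 126, 152 and 223 for young replicates 1, 2 and 3 against 89.2, 80.4 and 77.3 for the old ones. Values below keep this order of replicates. Young replicate 3 thus stood above the other young arrays in leukocyte RNA. In bulk RNA, fewer cells of a type and less RNA per cell cannot be told apart.

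Of the 57 Rab genes, 51 passed the filter on dim probes, which asks for a signal well above background on 3 or more arrays, and were tested; 45 of them had it on all 6. Among the 51 tested, 5 fell and 1 rose in old samples at an adjusted p under 0.05 (limma with Benjamini-Hochberg adjustment over all 23264 genes tested). Those that fell were Rab20, Rab28, Rab6b, Rab32 and Rab23, and Rab8a rose. This is 11.8% of the tested Rab genes, against 8.01% of all genes tested (4.04% lower and 3.98% higher in old). Rab20 and Rab6b passed the filter through the young group alone. Among genes well above background on all 6 arrays the order turned, with 8.89% of 45 Rab genes called against 10.4% of all genes, so the share called does not set the Rab genes apart. The split by direction in all genes depended on the scaling: 49.6% of calls were higher in old here, against 39.0% in the table of deposited values and 62.0% after normexp correction, and 1 Rab gene rose under each of these. Most Rab genes differed little with age, as 41 of the 51 had a log2 fold change smaller than 0.5 in either direction. The median log2 fold change was -0.1 for the Rab genes and 0.07 for all genes, and 68.6% of Rab genes against 39.8% of all genes lay below 0. The 3 old values lay wholly outside the young range in 19 Rab genes, 14 below and 5 above, which is 37.3% against 36.0% of all genes. At an unadjusted limma p under 0.05 stood 16 of the 51 Rab genes, against 6469 of all 23264 genes (27.8%). Below the young range lay 14 of the 51 Rab genes against 13.1% of all genes, and above it 5 of the 51 against 22.9%.

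**Figure D1:**
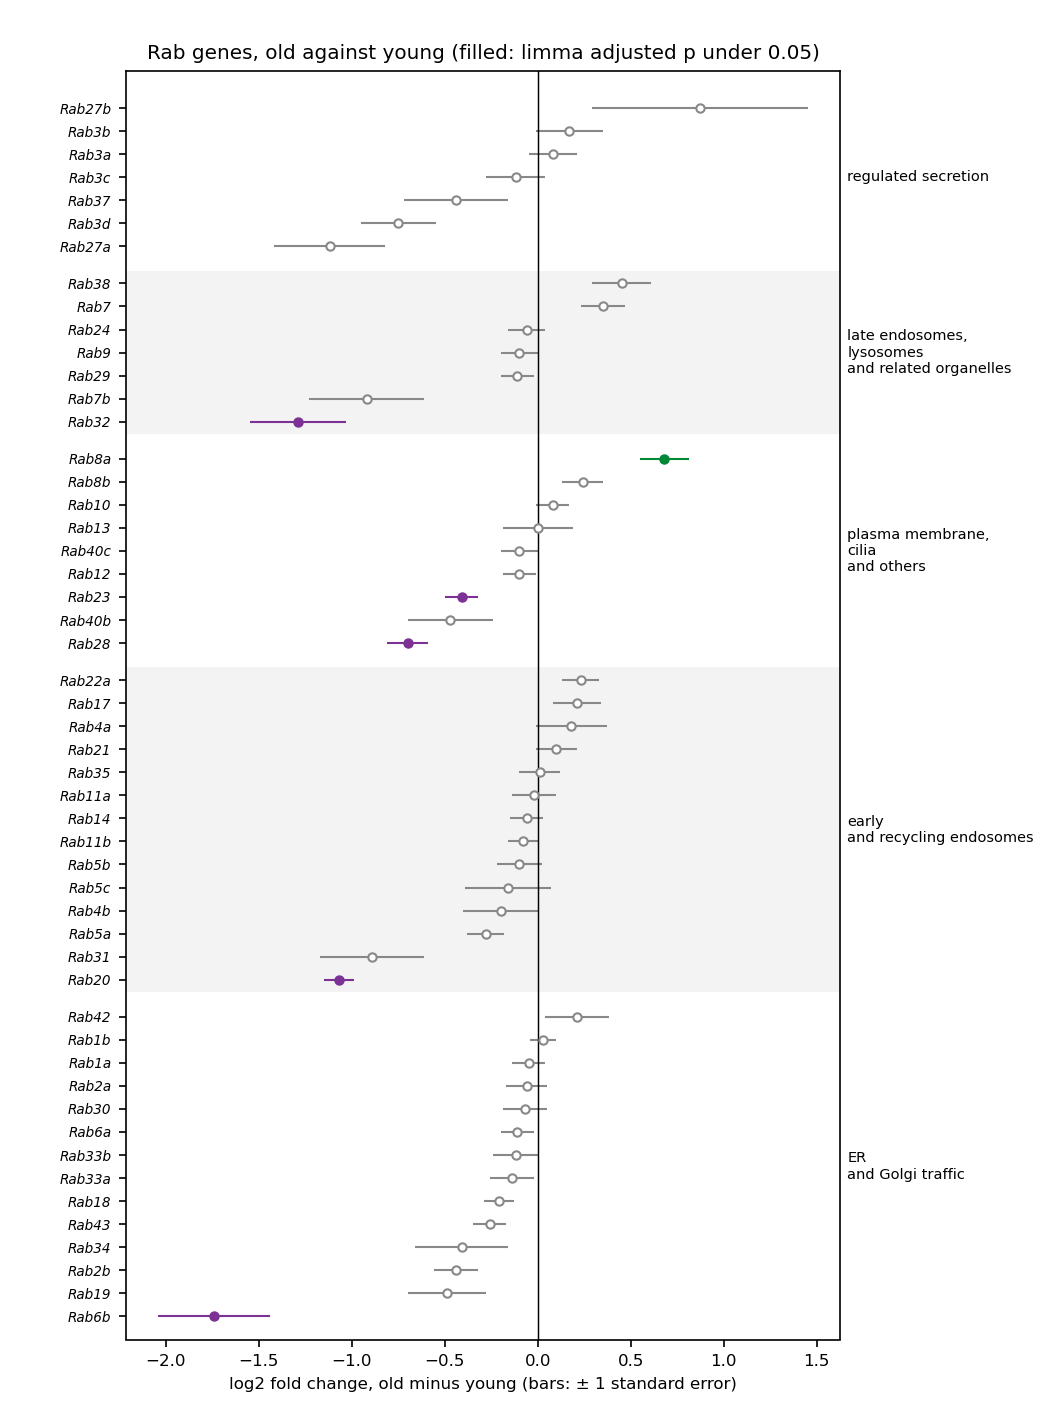
Log2 fold change (old minus young) of the 51 tested Rab genes, in groups by the membrane step they serve; points are limma estimates, bars 1 standard error, and filled points passed an adjusted p of 0.05. Rab6b, Rab32, Rab28, Rab20 and Rab23 lie to the left and Rab8a to the right, and most others lie near 0.

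Rab32, which directs cargo to lysosome-related organelles and serves phagosome defence in macrophages, was 0.22, 0.48 and 1.0 in young against -0.56, -0.47 and -1.14 in old samples. Every old array lay below every young array, and young replicate 3 was the highest. The fall was 1.29 ± 0.26 on the log2 scale (estimate ± SE, here and below), or 2.44-fold (limma adjusted p = 0.0397, n = 3 and 3). Without young replicate 3 it was -1.07 with an adjusted p of 0.0871.

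Rab20, an endosomal and phagosomal Rab known from macrophages, was -3.52, -3.5 and -3.48 in young against -4.53, -4.65 and -4.54 in old samples. The replicates of each age lay close together, yet all 3 old arrays were too dim to stand well above background. The fitted difference passed (limma adjusted p = 0.0153), but its size rests on these dim signals. A bound puts Rab20 at least 1.31-fold lower in old samples, and the p-value does not test that bound. Such a bound sets the young mean against the higher of the probe's own old signal and the lowest signal of any probe well above background on that array. It is approximate, since a probe brighter than that lowest signal can still fail to stand well above background. With normexp background correction the log2 fold change of Rab20 was 0.02 (limma adjusted p = 0.891), so both call and direction were lost.

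Rab6b, the relative of the Golgi Rab6a that is best known from neurons, was -2.68, -3.4 and -2.8 in young against -4.98, -4.13 and -4.99 in old samples. The groups did not overlap, and the signal was well above background in young samples alone. By the same approximate bound Rab6b was at least 1.91-fold lower in old samples. Its fitted difference passed (limma adjusted p = 0.031), against a log2 fold change of -0.22 (adjusted p = 0.304) with normexp.

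Rab28, a Rab of the cilium and of photoreceptor cells, was 0.3, 0.36 and 0.5 in young against -0.16, -0.39 and -0.4 in old samples. It was bright enough on every array, and every old value lay below every young value. It fell by 0.7 ± 0.11, or 1.63-fold (limma adjusted p = 0.0265). This call held with normexp, quantile and cyclic loess normalization, median scaling and the deposited table (log2 fold change -0.59 to -0.77 over all settings without a left-out array).

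Rab23, a negative regulator of Hedgehog signalling that is linked to cilia, was -2.64, -2.6 and -2.58 in young against -3.16, -2.95 and -2.97 in old samples. The gap was small and the spread within each age smaller still. It fell by 0.41 ± 0.09, or 1.33-fold (limma adjusted p = 0.0465). The call ended with median scaling (adjusted p = 0.0502) and with normexp, where the log2 fold change was -0.02. It also ended with the mean over both Rab23 probes (-0.08), of which the other never stood well above background.

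Rab8a, which drives vesicles from the Golgi and recycling endosomes to the plasma membrane and into cilia, was the called gene that rose. It was 2.43, 2.51 and 2.29 in young against 3.09, 2.87 and 3.29 in old samples, with every old value above every young value. The rise was 0.68 ± 0.13, or 1.6-fold (limma adjusted p = 0.037). A further Rab8a probe, also well above background on all arrays, gave a log2 fold change of -0.11 ± 0.09. On that probe the old values of 1.93, 1.8 and 1.83 overlapped the young values of 1.85, 2.01 and 2.04. The mean of both probes differed by 0.28 (adjusted p = 0.123), so the rise of Rab8a rests on 1 of its 2 probes.

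The calls depended on single arrays. Those of Rab6b, Rab8a, Rab32 and Rab23 were lost whichever array was left out, that of Rab28 stood in 2 of the 6 cases and that of Rab20 in 4. Without old replicate 2, and likewise without old replicate 3, none of the Rab genes passed (15 and 13 at an unadjusted limma p under 0.05), while 1 and 5 of all genes did. Without young replicates 1, 2 and 3 in turn, 3, 1 and 1 passed, and without old replicate 1, 2 passed. None passed without the filter on dim probes (17 at an unadjusted limma p under 0.05).

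**Figure D2:**
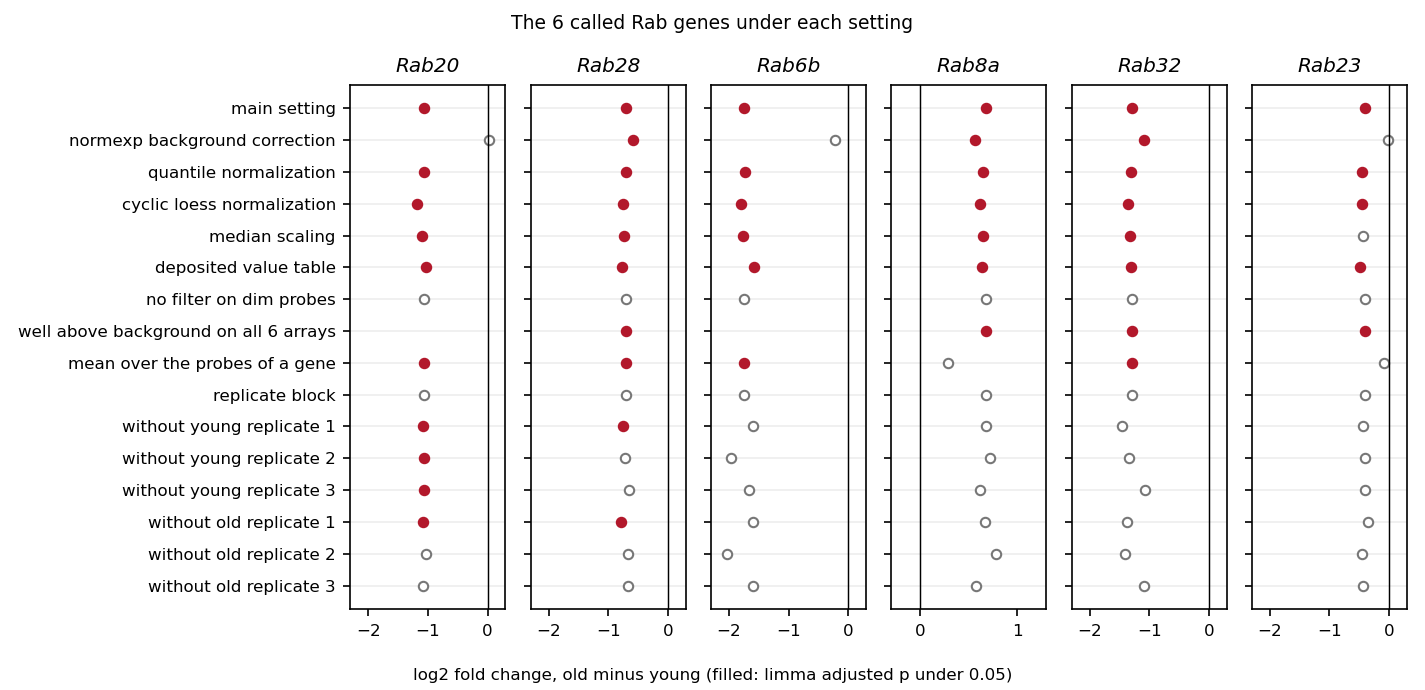
Log2 fold change (old minus young) of the 6 called Rab genes in the main setting, under 9 other settings and with each array left out; filled points have a limma adjusted p under 0.05. Rab28 stays between -0.78 and -0.59 and Rab32 between -1.46 and -1.07, whereas Rab20, Rab6b and Rab23 move towards 0 with normexp and Rab8a does so with the mean over its probes.

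Promoters were set side by side for the 3 called Rab genes with the lowest fitted log2 fold changes and for the one that rose. For Rab20 and Rab6b only the approximate bounds above describe the size of the fall. Shown are the regions just before the start sites. Each is the 250 bases upstream of the start, 5′ to 3′ on the gene's strand, from RefSeq on GRCm38.p6. Capitals mark matches on either strand to any of 5 motifs. The first is the GC box, spelled GGGCGG. The next is the CCAAT box, spelled by its name. The E-box searched was CACGTG. The core bound by PU.1-type ETS factors of myeloid and B cells was searched as GAGGAAGT. The TATA box was searched as TATAAA.
Rab20, chr8:11478641-11478890, minus strand: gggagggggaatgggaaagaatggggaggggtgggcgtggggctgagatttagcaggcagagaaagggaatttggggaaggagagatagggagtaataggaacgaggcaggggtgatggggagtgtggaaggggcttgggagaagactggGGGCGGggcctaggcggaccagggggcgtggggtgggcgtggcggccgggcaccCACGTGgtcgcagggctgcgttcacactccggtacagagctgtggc
Rab6b, chr9:103111824-103112073, plus strand: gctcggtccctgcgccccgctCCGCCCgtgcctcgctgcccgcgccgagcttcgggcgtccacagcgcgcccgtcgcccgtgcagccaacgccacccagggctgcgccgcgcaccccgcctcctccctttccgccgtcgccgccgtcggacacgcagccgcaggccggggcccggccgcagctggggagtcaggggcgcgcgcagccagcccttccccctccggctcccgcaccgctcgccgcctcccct
Rab32, chr10:10558208-10558457, minus strand: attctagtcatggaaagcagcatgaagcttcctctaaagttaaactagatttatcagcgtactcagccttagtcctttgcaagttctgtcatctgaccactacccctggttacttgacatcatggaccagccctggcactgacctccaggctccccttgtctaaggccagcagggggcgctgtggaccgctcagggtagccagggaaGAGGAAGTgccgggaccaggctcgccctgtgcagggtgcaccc
Rab8a, chr8:72160950-72161199, plus strand: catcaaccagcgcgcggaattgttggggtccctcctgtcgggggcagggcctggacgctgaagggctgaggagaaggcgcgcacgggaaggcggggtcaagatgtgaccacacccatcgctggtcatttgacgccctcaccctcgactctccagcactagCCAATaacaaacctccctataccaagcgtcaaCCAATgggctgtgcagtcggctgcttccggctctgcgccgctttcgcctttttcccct

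The 4 windows shared no motif. Rab20 and Rab6b had 1 GC box each, Rab20 also 1 E-box, Rab8a 2 CCAAT boxes and Rab32 1 PU.1-type match. The PU.1-type letters were present in 2.44% of all 32851 RefSeq windows of this length and in 2 of the 60 windows of 48 Rab genes. The GC box was the commonest motif of the family, in 66.7% of Rab windows against 32.7% of all windows, and the median GC content was 60.2% against 52.4%. E-boxes were in 8.33% of Rab and 6.02% of all windows, CCAAT boxes in 40% and 33.8%, and TATA boxes in 6.67% and 12.4%. These are matches of letters, not measured binding.

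Rab genes of the endoplasmic reticulum and Golgi gave 1 call among 14 tested (7.14%, against 8.01% of all genes), the fall of Rab6b described above. Of the 14, 12 had log2 fold changes below 0 (85.7%, against 39.8% of all genes). Rab1a and Rab1b, which tether vesicles that leave the endoplasmic reticulum, differed by -0.05 ± 0.09 and 0.03 ± 0.07 between the ages, and the Golgi Rab6a by -0.11 ± 0.09. Rab2b, a relative of the Golgi Rab2a, was 0.74, 0.37 and 0.37 in young against 0.06, 0.0 and 0.08 in old samples. All old Rab2b arrays lay below the young arrays, but the difference of -0.44 ± 0.12 did not pass (limma adjusted p = 0.082) except with normexp (-0.42, adjusted p = 0.0278). Rab43, which serves Golgi transport, was 5.14, 5.25 and 5.23 against 5.0, 4.84 and 4.99, a difference of -0.26 ± 0.09 (limma adjusted p = 0.117), which with normexp was -0.38 and passed (adjusted p = 0.0294). Rab18, of lipid droplets and the endoplasmic reticulum, was 3.16, 3.24 and 3.28 against 3.04, 3.06 and 2.96, and Rab19 was -0.82, -0.81 and -0.46 against -1.6, -0.89 and -1.07. Neither group of values overlapped and neither gene passed (adjusted p = 0.162 and 0.188). The remaining tested genes of this step, Rab2a, Rab30, Rab33a, Rab33b, Rab34 and Rab42, overlapped between the ages. Their young and old means were 0.37 and 0.3, -0.75 and -0.82, -2.15 and -2.28, -0.09 and -0.21, -1.69 and -2.09, and -3.11 and -2.9, in that order of genes. Rab39 and Rab39b were well above background on 1 array each.

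Early and recycling endosomal Rab genes gave 1 call among 14 tested, Rab20 (7.14%, against 8.01% of all genes). Rab5a, a master regulator of early endosome fusion, was 2.82, 3.09 and 3.03 in young against 2.75, 2.66 and 2.7 in old samples. The groups did not overlap, the difference of -0.28 ± 0.1 did not pass (limma adjusted p = 0.142), and a further Rab5a probe gave 0.05 ± 0.12. Its relatives overlapped between the ages, with young and old means of 2.13 and 2.02 for Rab5b and of 5.06 and 4.9 for Rab5c. Another Rab5b probe, measured on all 6 arrays, did not overlap, with -0.91, -0.99 and -0.89 in young against -0.49, -0.62 and -0.2 in old samples (0.49 ± 0.13). Rab31, which sorts cargo between the Golgi and endosomes, was -1.83, -1.27 and -0.71 in young against -2.3, -1.99 and -2.2 in old samples. Young replicate 3 was again highest, and the difference of -0.89 ± 0.28 (limma adjusted p = 0.107) was -0.61 without it. Rab22a, the close relative of Rab31, was 2.2, 2.15 and 2.11 against 2.28, 2.34 and 2.54, so its old values were all higher, by 0.23 ± 0.1 (limma adjusted p = 0.191). The recycling Rabs Rab4a, Rab4b, Rab11a, Rab11b, Rab14 and Rab35 overlapped, with log2 fold changes of -0.2 to 0.18. Their young and old means were 3.6 and 3.78, 0.79 and 0.6, 2.05 and 2.02, 3.95 and 3.87, 4.72 and 4.66, and 4.95 and 4.96, in that order of genes. A further Rab4a probe, also well above background on all 6 arrays, gave a larger difference of 0.6 ± 0.21. Rab17 (-2.96 and -2.74) and Rab21 (-0.99 and -0.89) overlapped too. Rab15 was not well above background on any array and Rab25, an epithelial Rab, on 1.

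Rab genes of the plasma membrane, of cilia and of steps that belong to neither gave 3 calls among 9 tested, Rab28, Rab23 and Rab8a. This is 33.3%, against 8.01% of all genes, but it rests on 9 genes. The calls went in both directions, 2 lower and 1 higher, and those of Rab23 and Rab8a had the limits given above. Rab8b was 3.73, 3.83 and 3.84 in young against 3.87, 4.07 and 4.19 in old samples. Its old values were all higher, by 0.24 ± 0.11 (limma adjusted p = 0.202), and its further probe gave 0.49 ± 0.14 in the same direction. Rab40b, which carries a ubiquitin ligase box, was -3.68, -3.46 and -3.75 against -4.39, -4.32 and -3.6 and overlapped (adjusted p = 0.236). Only 1 of its old arrays was well above background, and with normexp its log2 fold change turned from -0.47 to 0.06. Rab10, Rab12, Rab13 and Rab40c overlapped. Their young and old means were 3.96 and 4.03 for Rab10, 1.39 and 1.28 for Rab12, -3.59 and -3.58 for Rab13, and 1.76 and 1.66 for Rab40c.

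Late endosomal and lysosomal Rab genes gave 1 call among 7 tested, Rab32 (14.3%, against 8.01% of all genes). Rab7, which brings late endosomes and autophagosomes to lysosomes, was 1.59, 1.85 and 1.97 in young against 2.22, 2.08 and 2.14 in old samples. All old arrays were higher, by 0.35 ± 0.12 (limma adjusted p = 0.133). Rab7b, a distinct relative that serves return from endosomes to the Golgi in myeloid cells, went the other way, with -2.72, -2.82 and -2.55 against -3.51, -3.04 and -4.31. It differed by -0.92 ± 0.31 (limma adjusted p = 0.124) and 1 of its old signals was too dim to stand well above background. With normexp the log2 fold change of Rab7b was -0.11 (limma adjusted p = 0.47). Rab38, the closest relative of Rab32 and a partner in making melanosomes and platelet granules, was 2.39, 2.63 and 2.22 against 2.63, 3.09 and 2.85. Its old values were just above the young range, by 0.45 ± 0.16 (limma adjusted p = 0.14). With the mean over its probes the difference was 0.53 and passed (limma adjusted p = 0.0436). The further Rab38 probe never stood well above background, so that pass is no second measurement of a rise. Rab9 (young and old means 3.13 and 3.03), Rab24 (3.99 and 3.93) and Rab29 (2.41 and 2.3) overlapped, and Rab9b was well above background on 1 array.

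Rab genes of regulated secretion gave no call among 7 tested (limma, with 2 at an unadjusted p under 0.05). Over all genes 8.01% were called and 27.8% had an unadjusted p under 0.05. Rab27a, which docks granules of cytotoxic cells, neutrophils and mast cells at the plasma membrane, was -1.5, -0.9 and -0.68 in young against -1.93, -1.85 and -2.68 in old samples. The old values all lay lower, by 1.12 log2 units with an SE of 0.3 (limma adjusted p = 0.0742), and the log2 fold change was -0.95 without young replicate 3. Rab3d, found on granules of mast cells and exocrine cells, was -0.35, 0.05 and 0.44 against -0.74, -0.6 and -0.78, a difference of -0.75 ± 0.2 (limma adjusted p = 0.0752). Both genes passed with normexp (adjusted p = 0.0488 for Rab27a and 0.0481 for Rab3d), with smaller differences of -0.52 and -0.54. A further Rab3d probe gave -0.45 ± 0.5, and the mean over the Rab3d probes differed by -0.6 (limma adjusted p = 0.235). Rab37, of mast cell granules, overlapped (young and old means 0.19 and -0.25), as did the synaptic vesicle Rab3a (0.54 and 0.62) and its relatives Rab3b (-3.86 and -3.69) and Rab3c (5.59 and 5.47). Rab26 was well above background on 1 array.

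Rab27b, the granule Rab of platelets, had the widest spread within an age of all tested Rab genes and was picked out for that after its values were seen. It was -0.99, -1.73 and -3.05 in young against -0.7, -0.64 and -1.81 in old samples, and a further probe gave -2.43, -3.78 and -4.66 against -1.93, -2.03 and -3.25. The difference between the ages of 0.87 ± 0.58 was well within that spread (limma adjusted p = 0.377). Pf4, the platelet factor 4 gene, was 4.57, 2.84 and -0.02 in young against 5.14, 4.7 and 2.57 in old samples. On its chosen probe Rab27b, like Pf4, was lowest in young replicate 3, next in old replicate 3, and highest in old replicates 1 and 2. The further Rab27b probe departed from this order, as young replicate 2 (-3.78) lay below old replicate 3 (-3.25). Other platelet markers did not all share this order: Ppbp and Gp1ba were highest in young replicate 1, Itga2b was lowest in old replicate 3, and Gp9 lay between 2.49 and 2.86 on all arrays. The summed signal of 11 megakaryocyte and platelet markers, in multiples of the 75th percentile, ranged from 13.5 to 43.7 on the young arrays and from 19.9 to 57.1 on the old arrays, with 9 of the 11 measured on all 6 arrays. None of the 10 tested markers passed (limma; 1 at an unadjusted p under 0.05; the list's median log2 fold change was 0.56). The part of platelet RNA in the Rab27b values was not tested.

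**Figure D3:**
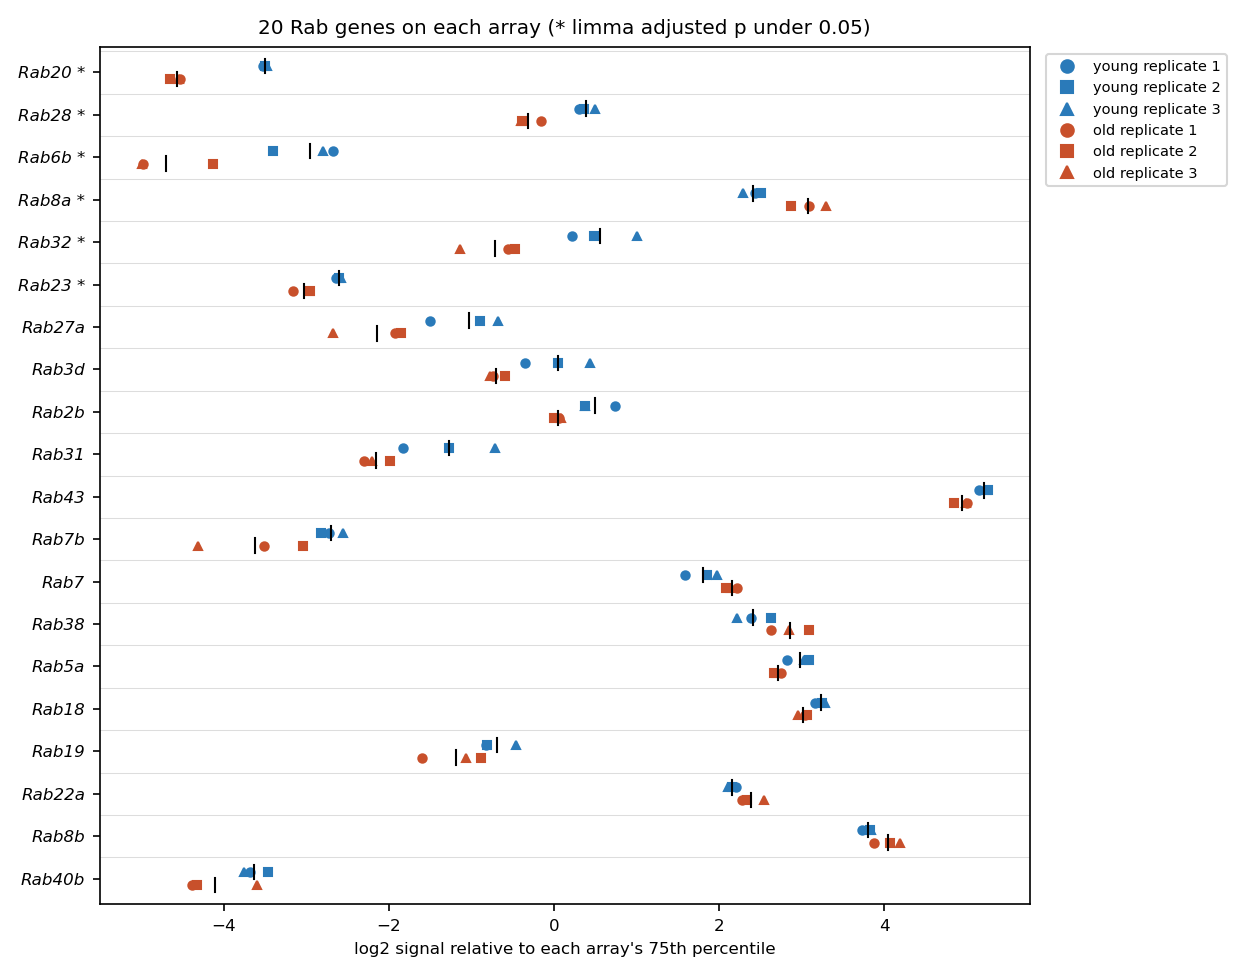
Log2 signal relative to each array's 75th percentile for the 20 Rab genes with the smallest p, in order of p from the top; points are single arrays (3 young, 3 old) and black bars group means. The 3 old arrays lie outside the young range in 19 of them, which the choice by p favours, against 36.0% of all genes tested. Young replicate 3 is the highest young array for Rab32, Rab27a, Rab3d and Rab31. The same holds for Rab20, Rab28, Rab23, Rab7b, Rab18 and Rab19, and for Rab7 and Rab8b, which were higher in old.

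Markers of other cell types were read on the same arrays. Young replicate 3 was the highest young array in 24 of all 51 tested Rab genes (47.1%, against 32.6% of all genes). It was so in 10 of the 14 Rab genes whose old values all lay lower. The share among all genes with that pattern was not computed, so the 10 of 14 has no background of its own. Young replicate 3 was also highest in 11 of 12 leukocyte, 14 of 15 neutrophil and 11 of 11 monocyte and macrophage markers. The same held for 7 of 10 erythroid, 4 of 11 B cell and 0 of 10 megakaryocyte and platelet markers. Called lower here means lower in old at a limma adjusted p under 0.05, as 4.04% of all genes were. Monocyte and macrophage markers summed to 25.1 to 54.9 on the young arrays and 10.5 to 15.3 on the old arrays. Of these markers 7 of 11 were called lower, and the median log2 fold change was -2.08. Neutrophil markers summed to 2030 to 3070 against 1360 to 1700, with 5 of 15 called lower. B cell markers summed to 42.8 to 80.5 against 8.75 to 17.3, with 7 of 11 tested called lower. Mast cell and basophil markers summed to 11.2 to 22.6 against 6.01 to 8.12, with 2 of 6 tested called lower. Log2 fold changes lay below 0 in 11 of 11, 14 of 15, 11 of 11 and 4 of 6 markers of these lists in turn. The share over all genes was 39.8%. Erythroid markers gave no call among 10 (limma; 2 at an unadjusted p under 0.05), with sums of 647 to 886 against 731 to 828. Among the sums given in this paragraph only the erythroid ones overlapped between the ages. The megakaryocyte and platelet sums given above overlapped too, as did the stromal sums (25.5 to 46.5 in young against 35.3 to 42.4 in old). The stromal sums do not show unchanged stromal RNA, because Lepr, the brightest marker of that list, rose. Of the 11 stromal markers tested, 9 had log2 fold changes below 0, with a median of -1.79. The old values lay wholly below the young range in 7 and wholly above it in 2. The part of leukocyte RNA in the falls of Rab20, Rab32, Rab27a, Rab31 and Rab3d was not tested.

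Close relatives within the family were then set against each other on the same array, because a ratio within an array does not depend on the scaling between arrays. It can still depend on the background correction, above all for dim genes. For 15 pairs of related genes the log2 ratio was taken per array, which shows unequal change only, not which member moved. The ages did not overlap in 8 of the 15 pairs. Ratios of other gene pairs were not computed, so this count has no background of its own, and 36.0% of single genes already do not overlap. An exact permutation test of 3 against 3 arrays (two-sided) cannot go below p = 0.1, and each of these 8 reached that value, which leaves none of the pairs past 0.05.

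The ratio of Rab32 to Rab38 was -2.17, -2.15 and -1.22 in young against -3.19, -3.56 and -3.99 in old samples. It was lower by 1.73 log2 units in old, with means of -1.85 ± 0.54 and -3.58 ± 0.4 (SD, n = 3 and 3; exact permutation p = 0.1). The ratio of Rab7b to Rab7 was -4.31, -4.67 and -4.52 against -5.73, -5.12 and -6.44, a difference of -1.27 (exact permutation p = 0.1). Rab31 to Rab22a went from -4.04, -3.43 and -2.81 to -4.58, -4.33 and -4.74, a difference of -1.12. The ratios were not recomputed with normexp. With it the log2 fold changes of the single genes were -0.11 for Rab7b, 0.25 for Rab7, -0.38 for Rab31 and 0.12 for Rab22a. Those of Rab32 and Rab38 were -1.08 and 0.38. The sizes of the Rab7b and Rab31 ratios thus depend on the background correction. The ratio of Rab27a to Rab27b spread from -0.51 to 2.36 on the young arrays and from -1.23 to -0.86 on the old arrays.

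Other pairs kept their ratio more closely. Rab1a to Rab1b differed by -0.08 between the ages, Rab11a to Rab11b by 0.06 and Rab33a to Rab33b by -0.02, each with overlapping arrays (exact permutation p = 0.3, 0.7 and 1.0). Rab8a to Rab8b was higher in old by 0.43, with no overlap, on the Rab8a probe that rose.

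**Figure D4:**
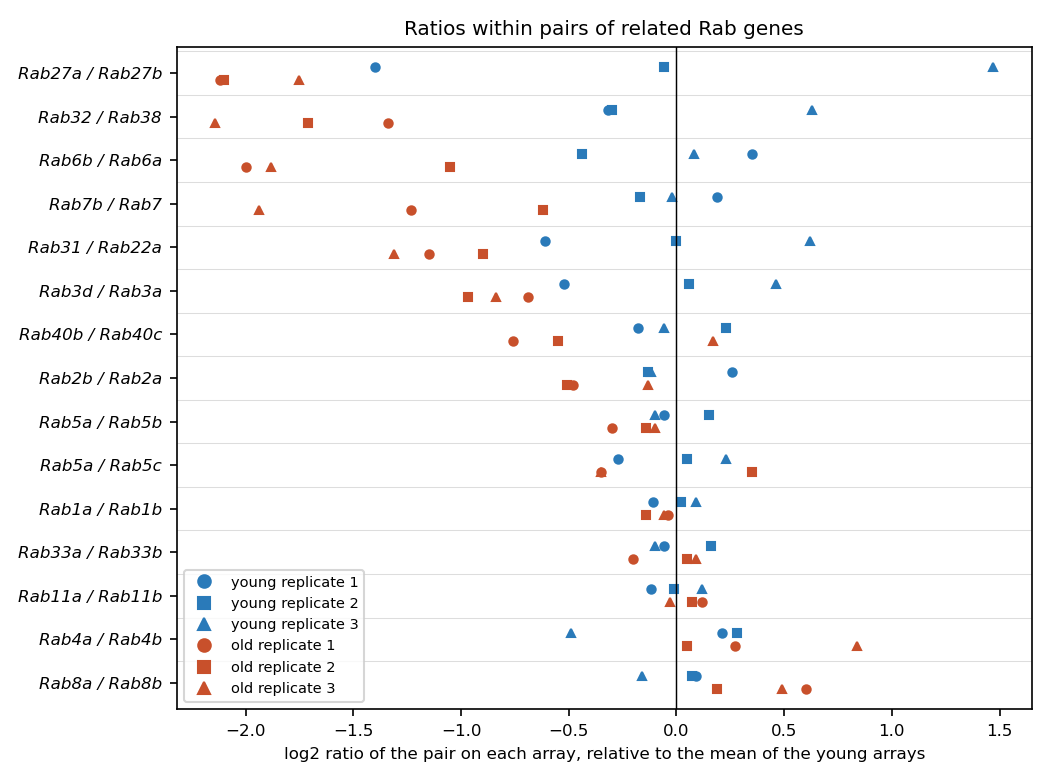
Log2 ratio of 15 pairs of related Rab genes on each array, shown relative to the mean of the young arrays; each point is 1 array. The old arrays lie outside the young range for 8 pairs, among them Rab32 to Rab38 and Rab7b to Rab7, and overlap it for the other 7.

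More than 1 RefSeq probe was present for 19 Rab genes, and 15 of them had at least 2 probes that were measured well enough to fit. The probes agreed in sign in 11 of the 15 and disagreed in 4, which were Rab8a, Rab5a, Rab5b and Rab30. For Rab30 the chosen probe gave -0.07 ± 0.12 and the other 0.65 ± 0.25. Both Rab43 probes were lower in old (-0.26 and -0.39) and both Rab8b probes higher (0.24 and 0.49). The other 38 Rab genes rest on a single probe.

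Regulators and effectors of Rab proteins were read from lists of 6 delivery factors, 38 GEFs, 35 GAPs, 49 effectors and 6 Rab-like GTPases. Of 132 of these genes on the array 118 were tested, and 9 fell and 2 rose in old samples (limma), or 9.32% against 8.01% of all genes. The median log2 fold change was -0.06. Of the 6 delivery factors none passed (limma; 1 at an unadjusted p under 0.05). Gdi2, a widely expressed GDP dissociation inhibitor that extracts Rabs from membranes, was 5.9, 5.92 and 5.92 in young against 6.14, 6.07 and 6.15 in old samples. All its old values were higher, by 0.21 ± 0.07 (limma adjusted p = 0.138). Rabac1, a membrane protein that binds prenylated Rabs, was 5.12, 5.2 and 5.13 in young against 5.25, 5.43 and 5.41 in old samples. Its old values were all higher too, by 0.21 ± 0.09 (limma adjusted p = 0.181).

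Among 34 tested GEFs 4 fell and none rose, which is 11.8% called, against 8.01% of all genes (4.04% lower and 3.98% higher in old). Dennd1c, a DENN-domain GEF for Rab35, was 0.19, 0.46 and 1.38 in young against -0.95, -1.65 and -1.75 in old samples, a fall of 2.13 ± 0.36 (limma adjusted p = 0.0297). Rin2, a Rab5 GEF, fell by 1.77 ± 0.33 (adjusted p = 0.0348) and was well above background on 1 of 3 old arrays. Dennd2d fell by 1.05 ± 0.21 (adjusted p = 0.0395). Dennd3, a GEF for Rab12, passed too (adjusted p = 0.0207), but its old signals were all too dim to stand well above background. By the same approximate bound it was at least 1.01-fold lower, and its log2 fold change with normexp was -0.05. Rab12 itself differed by -0.1 ± 0.09 and Rab35 by 0.01 ± 0.11. Of 33 tested GAPs 1 fell (3.03%), Tbc1d10c, a GAP of lymphoid cells, by 1.46 ± 0.19 (adjusted p = 0.0228).

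Effectors gave 6 calls among 41 tested (14.6%, against 8.01% of all genes), 4 lower and 2 higher in old. Lrrk2, the kinase that phosphorylates Rab8a, Rab10 and other Rabs, was -0.15, 0.21 and 0.84 in young against -1.34, -1.92 and -1.97 in old samples, and fell by 2.04 ± 0.29 (limma adjusted p = 0.0255). Young replicate 3 was the highest array. Mical1 (-1.88 ± 0.33, adjusted p = 0.0318) and Micall1 (-1.28 ± 0.28, adjusted p = 0.047) bind Rab8-family proteins, and Sytl1, a Rab27 effector of secretory granules, fell by 0.82 ± 0.16 (adjusted p = 0.039). The 2 that rose were Rph3a, a Rab3 effector of secretory vesicles (0.82 ± 0.12, adjusted p = 0.0259), and Bicd1, which links Rab6 vesicles to dynein (1.03 ± 0.22, adjusted p = 0.0432). With the mean over probes the calls of Bicd1 (0.82, limma adjusted p = 0.185) and Sytl1 (-0.7, adjusted p = 0.0598) ended. That of Micall1 ended with normexp (-0.44, limma adjusted p = 0.0717) and with cyclic loess (adjusted p = 0.0594). Of the 4 tested Rab-like GTPases none passed (limma; 1 at an unadjusted p under 0.05), with Rabl2 at -0.2 ± 0.08 and Rabl3 at 0.2 ± 0.08. Sytl2, Sytl5, Mlph, Exph5, Myrip and Bicdl1 had no array well above background. The leukocyte sums given above, lower in old and highest in young replicate 3, also stood beside these falls, and their part was not tested either. Without young replicate 3 the calls that stood were 3 of the 11 (Dennd3, Tbc1d10c and Lrrk2), but this did not single out that array: 0 passed when young replicate 2 was left out, or the old replicates 2 and 3 in turn (limma; 20, 27 and 20 at an unadjusted p under 0.05), 5 without young replicate 1 and 9 without old replicate 1. The log2 fold changes without young replicate 3 were -1.78 for Dennd1c, -1.6 for Mical1 and -1.51 for Rin2.

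**Figure D5:**
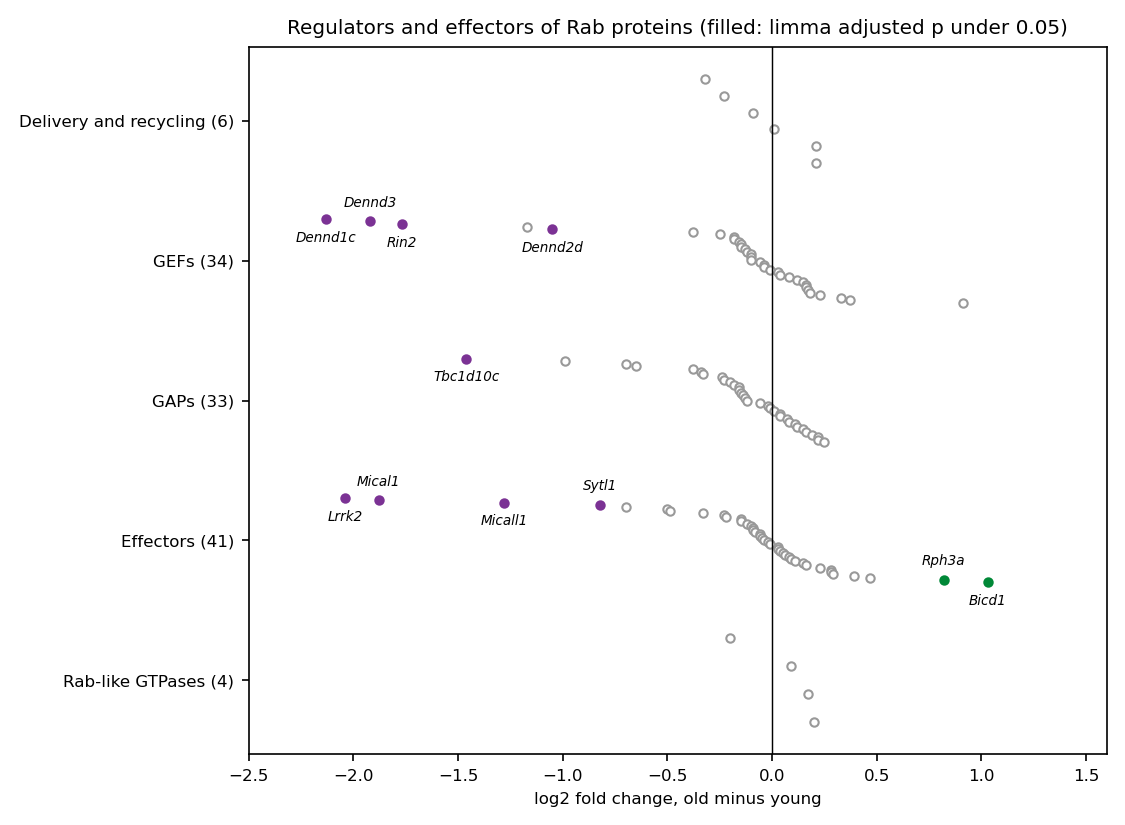
Log2 fold change (old minus young) of the tested regulators and effectors of Rab proteins in 5 lists, with the number tested in brackets; each point is 1 gene, filled where the limma adjusted p was under 0.05. The 9 genes that fell lie between -2.13 and -0.82, and Rph3a and Bicd1 rose.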

How the data were processed

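The authors deposited 6 Agilent Feature Extraction scanner files (version 10.7.3.1 per the file headers; the submitters' processing notes name 10.5.1.1), 1 colour each, with spot intensities that the software had background-subtracted and detrended within the array. They also deposited a table of log2 values scaled between arrays by a method not given in the sources used here (column medians 4.87 to 4.95). It followed log2 processed intensity at r = 0.9986 to 0.9995. Control and outlier spots were left out and spots of a probe averaged. Values are log2 processed intensity minus each array's 75th percentile. Symbols came from RefSeq transcripts of GRCm38.p6 by accession without version; 47.4% of 55681 probes matched. The probe with the highest mean stood for a gene, tested when well above background on at least 3 arrays. Old was compared with young by limma 3.58.1 in R 4.3.3, without covariates. Alternatives were other background corrections, scalings, filters, probe rules, a replicate block and leaving out each array. The files hold no mean spot signal, so normexp (offset 50) used the median. The tests were tried on simulated data.

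Values on each array are given for the called Rab genes and then by smallest p up to 20 genes, group means or detection for the others; of regulators, those past the threshold or the 2 of smallest p. Members and lists were chosen with earlier results of these data known. One gene of the regulator lists is not reported here and was left out of their counts.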

Additional observations from a re-analysis of the deposited data

How the results depend on the processing

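The count of 6 Rab genes past the threshold was 4 to 7 under normexp, quantile, cyclic loess, median scaling, the deposited table, the stricter filter, the mean over probes and both other member rules (one of them, which kept 3 more symbols, was chosen after seeing the data). The count does not say which genes: the 7 with normexp were Rab28, Rab8a and Rab32 of the 6, and Rab27a, Rab3d, Rab2b and Rab43. It was 0 without the filter on dim probes and 0 with the replicate block, but the numbers do not pair the samples: deviations of same-numbered arrays correlated at -0.03, 0.017 and -0.009. Regulators and effectors went from 11 to 0 in both cases, and all genes from 1864 to 0 (11662 and 5553 at an unadjusted limma p under 0.05). With normexp, 2911 of all genes passed. Leaving out 1 array gave 0 to 3 Rab genes, 0 to 9 regulators, 1 to 1153 of all genes, and 20 to 26 Rab genes without overlap, against 19; over all genes that share rose likewise, from 36.0% to between 43.2% and 48.7%. Of the named genes, Rab20 (0.02) and Rab40b (0.06) reversed, both with normexp. The cause of these losses was not tested. The block gives no count of groups without overlap, and under the stricter filter Rab20 and Rab6b were not tested. Rab20, Rab6b and Dennd3 were not well above background on any old array, which limits what their size can show.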
